A study of Oryza sativa with 12 samples.

Results

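HSP23.2, HSP24.1, HSP26.2 and HSP26.7 are rice small heat shock genes whose proteins work inside organelles: HSP23.2 in the endoplasmic reticulum (ER), HSP24.1 and HSP26.2 in mitochondria and HSP26.7 in the plastid. They were chosen by name, matched to the symbols and synonyms of the genes on the array, and all 4 were found among 17905 genes with a probe set. Each was read by 1 probe set. Panicles of the heat tolerant line 252 and the heat sensitive line 082 had been profiled on a 1-colour Affymetrix rice array, with 3 arrays described as biological replicates in each of 4 groups. The groups were line 252 at high temperature (days of 37 °C and nights of 30 °C, for 5 days), line 252 at optimal temperature (days of 30 °C and nights of 25 °C), line 082 at high temperature and line 082 at optimal temperature. Neither panicle stage nor the parentage of the lines is stated in the labels.

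Small heat shock proteins share a conserved alpha-crystallin domain, assemble into oligomers and bind unfolding proteins without using ATP, so that other chaperones can refold them later. Plants keep separate classes of them in the cytosol, ER, mitochondria and plastids, the mitochondrial and plastid classes being made in the cytosol and imported. Many are transcribed by heat stress factors when leaves or roots are heated, and several also accumulate without heat while seeds and pollen mature.

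At optimal temperature every one of the 4 genes was lower in line 252 than in line 082. At high temperature no difference between the lines passed for any of them. HSP23.2 rose with heat in both lines. HSP24.1, HSP26.2 and HSP26.7 fell in line 082, and among these HSP26.7 rose in line 252. That call was lost when any 1 array of line 252 was left out, with the log2 change at 1.10 to 1.26. The summed signal of 11 grain marker genes was 178050 to 245731 in line 082 at optimal temperature and 164 to 261 at high temperature. What part grain tissue had in the line 082 falls, or in the gap between lines at optimal temperature, was not tested. The test was limma on log2 of the deposited signal plus 16, across 33658 probe sets. The words rose, fell and differed are used of an adjusted p under 0.05 together with a log2 change of 1 or more in either direction.

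**Figure D1:**
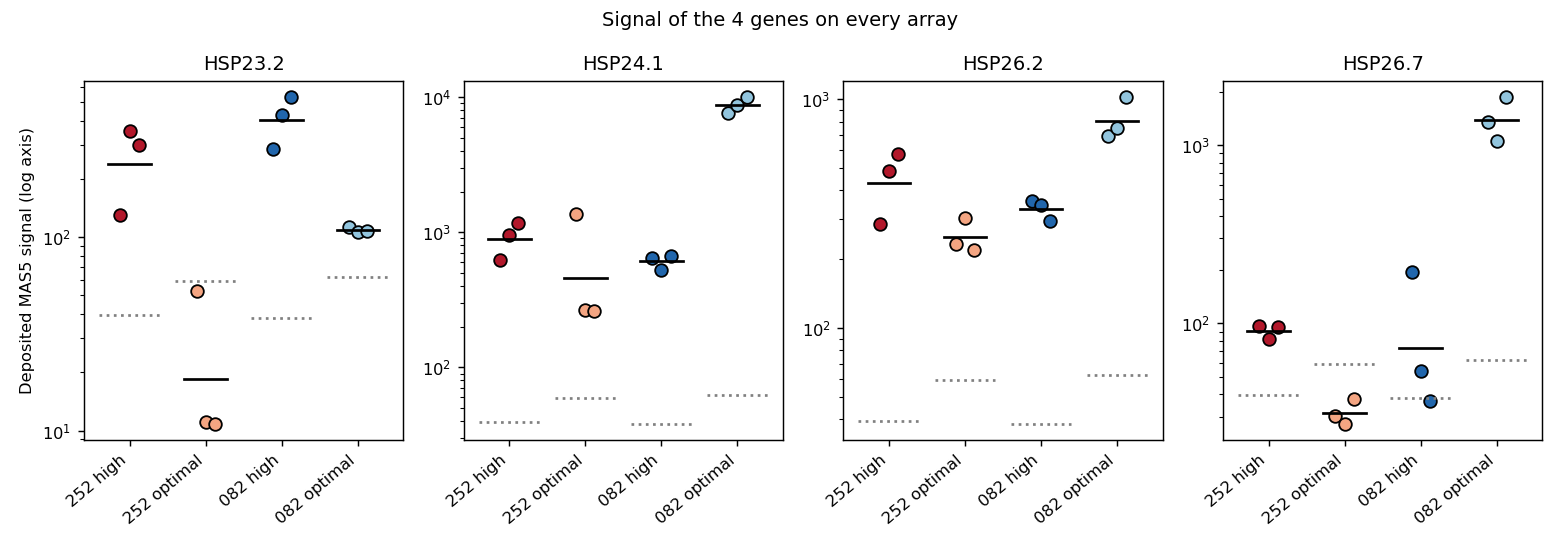
Deposited MAS5 signal (log axis) of the 4 genes on each of the 12 arrays, by line and temperature; points are arrays, black bars geometric means of 3 arrays and dotted lines the mean array median of the group. HSP24.1, HSP26.2 and HSP26.7 were highest on the line 082 arrays at optimal temperature, while the high-temperature arrays of both lines held the highest HSP23.2 signals and overlapped.

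Some features of the arrays moved with the groups. Median signals were 37.9 to 41.9 in line 252 and 36.5 to 41.2 in line 082 at high temperature, against 55.1 to 61.5 and 58.6 to 68.4 at optimal temperature. All 12 floral MADS-box genes taken as panicle markers were above the array median on every array. Their summed signal was 77911 to 95741 on the high-temperature and 47752 to 70327 on the optimal arrays of line 252. In line 082 it was 74763 to 81999 and 34065 to 49079. Of the 12 genes, 3 rose and 2 fell in line 252, where 11.3% and 22% of all genes did. In line 082, 5 rose and 0 fell, where 18.1% and 20.3% of all genes did. What part floral tissue had in the heat changes of the 4 genes was not tested. The summed signal of 11 grain markers, such as glutelin and starch synthesis genes, was 239 to 599 on the line 252 arrays from high temperature and 482 to 17253 on those from optimal temperature, with 17253 on replicate 1 and 604 and 482 on replicates 2 and 3. The sum of 17253 came mostly from the starch synthesis genes GBSS-I (group mean 3980 ± 6640, SD, n = 3) and SSII-3 (1684 ± 2772). The glutelin genes GLUA-1, GLUA-3, GLUB-5 and GLUD-1 averaged 14.9, 30.0, 93.9 and 6.17 in that group, PROLM25 2.85 and RA17 12.3. In line 082 the sums were 164 to 261 after heat and 178050 to 245731 without it. No grain marker was at 0 on all 3 arrays of a group, and 2 of the 11 were above the array median on all 3 arrays in line 252 at high temperature, 4 in line 252 at optimal temperature, 1 in line 082 at high temperature and 11 in line 082 at optimal temperature. The summed signal of 4 anther tapetum markers was 736 to 877 on the high-temperature and 1033 to 1562 on the optimal arrays of line 252, and 733 to 1085 on the high-temperature and 1687 to 2211 on the optimal arrays of line 082. Most of each sum was GAMYB, at means of 744 and 1136 in line 252 and 875 and 1790 in line 082. In line 252 EAT1 averaged 35.4 at high and 18.7 at optimal temperature, and CYP703A3 10.8 and 72.8. In line 082 EAT1 averaged 21.7 at high and 186 at optimal temperature, and CYP703A3 6.38 and 23.5. TDR averaged 5.57 to 13.8 over the groups. The 3′/5′ signal ratio of actin, taken as a measure of how intact the RNA was, differed between groups. It was 4.29 to 7.02 in line 082 at optimal temperature and 21.9 to 34.9 on the other arrays. GAPDH (at most 2.17 against at least 4.82) and cyclophilin (at most 2.27 against at least 2.52) were split in the same way. Ubiquitin (0.815 to 0.861 against 0.860 to 1.33) and EF1a (0.231 to 0.492 against 0.234 to 0.816) overlapped. The 5 rice transcripts thus did not all separate these arrays. The 3′/5′ ratio of Dap, a bacterial control transcript, was 11.2 to 13.2 on the high-temperature arrays and 1.58 to 1.98 on the optimal ones. The controls Thr (17.3 to 28.1 against 2.87 to 4.68), Phe (3.48 to 4.98 against 0.853 to 1.41) and Lys (3.94 to 6.11 against 2.27 to 3.25) split likewise. What moved these ratios cannot be told apart from temperature in either line. Its part in the actin ratios and in the heat changes of the 4 genes was not tested.

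HSP23.2 (LOC4335956), the ER member, rose at high temperature in both lines. In line 252 it had signals of 130.5, 353.5 and 299.3 on the high-temperature arrays, against 52.5, 11.1 and 10.9 on the optimal ones. In line 082 it had 285.7, 429.5 and 529.2 on the high-temperature arrays, against 113.0, 106.3 and 108.0 on the optimal ones. The high-temperature arrays lay above the optimal ones in each line with no overlap. The log2 change was 2.81 ± 0.42 (SE; adjusted p = 0.000155 in limma) in line 252 and 1.74 ± 0.42 (adjusted p = 0.00345) in line 082. Over all probe sets, 9.41% rose in line 252 and 14.2% in line 082, and a larger log2 change than that of HSP23.2 was seen in 0.850% and 4.93% of probe sets. The line 252 arrays at optimal temperature lay under their array medians, so its size there rests on the constant of 16: with 1 added the rise was 3.61, and with 64 it was 1.83.

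In line 252 at optimal temperature, HSP23.2 was brighter on replicate 1 (52.5) than on the other 2 arrays (11.1 and 10.9), and the same array held the grain marker sum of 17253. Without that array the rise in line 252 was 3.25 on the log2 scale. In line 082, where the grain marker sum was 178050 to 245731 at optimal temperature, HSP23.2 was lower there than at high temperature. The part of grain tissue in these values, or of whatever moved the control ratios with temperature, was not tested. Ordered by mean signal, HSP23.2 was highest in line 082 at high temperature (415 ± 122, SD, n = 3), then in line 252 at high temperature (261 ± 116), in line 082 at optimal temperature (109 ± 3.46) and in line 252 at optimal temperature (24.8 ± 23.9). The ranges of the first 2 of these groups overlapped and those of the other neighbours did not.

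HSP24.1 (LOC4330786), a mitochondrial member, fell steeply in line 082 and did not pass in line 252. In line 082 its signals were 640.3, 525.4 and 670.3 on the high-temperature arrays, against 7594, 8795 and 9948 on the optimal ones. These arrays did not overlap, and the log2 change was −3.81 ± 0.48 (adjusted p = 3.13e-05 in limma), a level at high temperature of 0.0715 times that at optimal temperature with a 95% interval of 0.0348 to 0.147. In line 082, 21.9% of all probe sets fell, and 2.29% had a deeper change than HSP24.1. All 11 grain markers fell in line 082 too, with a median log2 change of −9.65, and the actin 3′/5′ ratios of the optimal arrays were the low ones. Neither measure overlapped between the temperatures in line 082, so its part in this fall cannot be told apart from that of temperature. The same holds for the line 082 falls of HSP26.2, HSP26.7 and the related genes named further on, and none of this was tested.

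In line 252 HSP24.1 had 627.2, 956.7 and 1162 on the high-temperature arrays, against 1366, 267.3 and 262.6 on the optimal ones. The 1366 on replicate 1 at optimal temperature, the array with the grain marker sum of 17253, lay above all 3 high-temperature arrays, and the other 2 optimal arrays lay below them. The log2 change was 0.92 ± 0.48 (adjusted p = 0.136, 95% interval −0.12 to 1.96), and without that array it was 1.68 (adjusted p = 0.000167) and passed. It also passed with array weights (1.34) and after centring arrays on the 75th percentile (1.22). With scaling to the hybridization spikes it was 0.48 (adjusted p = 0.455 in limma). The marker sum of 17253 came mostly from GBSS-I and SSII-3. The part of grain tissue in the signal of 1366 was not tested. Signals were highest in line 082 at optimal temperature (8779 ± 1177, SD, n = 3), and the 3 remaining groups, at 915 ± 270.0, 632 ± 636 and 612 ± 76.5 for line 252 at high, line 252 at optimal and line 082 at high temperature, overlapped between neighbours in that order.

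HSP26.2 (LOC4340508), the other mitochondrial member, moved less. Its signals in line 082 were 361.1, 344.3 and 295.4 on the high-temperature arrays, against 690.5, 747.4 and 1020.1 on the optimal ones, with no overlap. In line 252 they were 285.6, 485.0 and 576.4 on the high-temperature arrays, against 232.2, 304.6 and 220.5 on the optimal ones, and here the lowest high-temperature array lay within the optimal range. The gene fell in line 082 by 1.24 ± 0.25 on the log2 scale (adjusted p = 0.00112 in limma). In line 252 its log2 change of 0.75 ± 0.25 had an adjusted p of 0.0271 but stayed under the minimum of 1. It passed with quantile normalization (1.16), with 75th percentile centring (1.04) and when replicate 1 of line 252 at high temperature was left out (1.03). With scaling to the hybridization spikes it was 0.32 (adjusted p = 0.301 in limma). In line 082, 18.2% of probe sets had a deeper change than HSP26.2. The name of its probe set ends in _s_at, which Affymetrix gives to sets shared by more than 1 transcript, so its values are less certain than those of the other 3 genes.

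HSP26.7 (LOC4332237), the plastid member, had the deepest fall of the 4 in line 082. Its signals there were 193.1, 54.3 and 36.6 on the high-temperature arrays, against 1353, 1052 and 1857 on the optimal ones. In line 252 they were 96.6, 81.3 and 95.1 on the high-temperature arrays, against 30.0, 27.4 and 37.6 on the optimal ones. Neither pair of groups overlapped, but in line 252 the optimal arrays lay under their array medians. The log2 change was −3.93 ± 0.42 (adjusted p = 8.48e-06 in limma) in line 082, and −4.52 without replicate 1 at high temperature, the array at 193.1. Of all probe sets 2.11% changed further down.

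The rise of HSP26.7 in line 252, by 1.17 ± 0.42 on the log2 scale, had an adjusted p of 0.0354. The call was lost when any of the 6 arrays of line 252 was left out, with adjusted p from 0.0564 to 0.0900, and also with no filter (0.0522), with 64 in place of 16 (0.0775) and with scaling to the hybridization spikes (0.103). The error was shared over the 4 groups, and the log2 SD of HSP26.7 was 0.117 and 0.158 in line 252 but 1.05 in line 082 at high temperature. In limma the adjusted p was 0.00805 with the compared groups alone. It was 0.00299 without replicate 1 of line 082 at high temperature. Group signals of HSP26.7 were 1421 ± 407 (SD, n = 3) in line 082 at optimal temperature, 94.7 ± 85.7 in line 082 at high temperature, 91.0 ± 8.47 in line 252 at high temperature and 31.7 ± 5.34 in line 252 at optimal temperature. The first stood clear of the others, the high-temperature groups overlapped, and the lowest array of line 082 at high temperature (36.6) reached into the range of line 252 at optimal temperature.

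**Figure D2:**
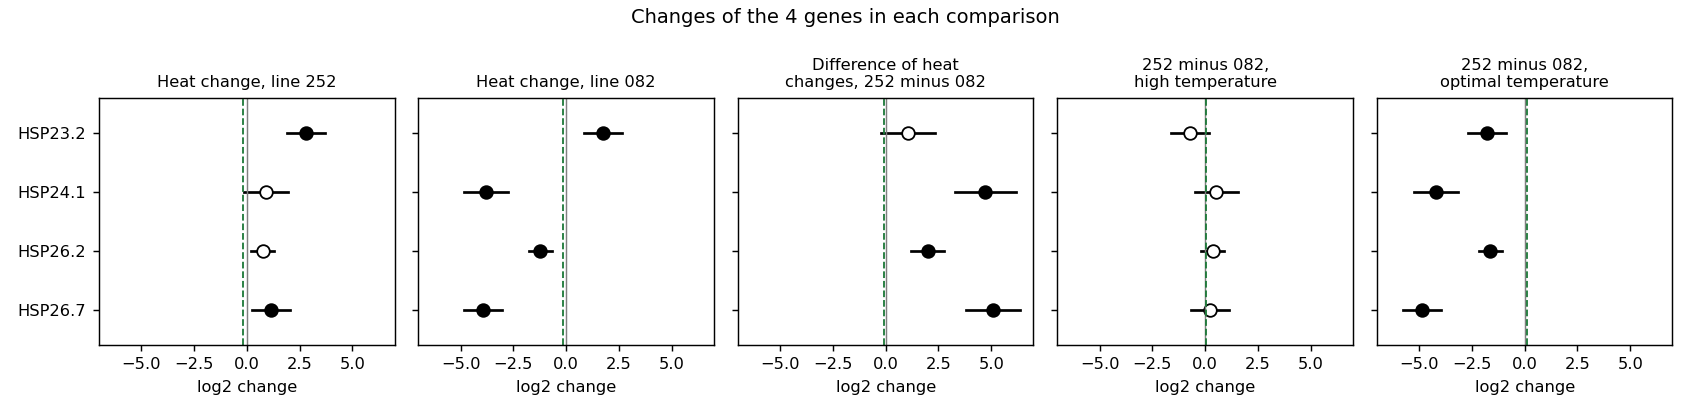
log2 change of the 4 genes in each comparison with its 95% interval; filled points passed the test, open points did not, and the green dashed line is the median of all 33658 probe sets. All 4 genes lay below 0 for line 252 minus line 082 at optimal temperature and none passed at high temperature.

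In line 252, 2 of the 4 genes rose and 0 fell, where 9.41% of all probe sets rose and 19.4% fell. In line 082, 1 rose and 3 fell, where 14.2% rose and 21.9% fell. The median log2 change of all probe sets was −0.20 in line 252 and −0.15 in line 082, and each gene's change relative to all probe sets was higher than its own log2 change by these amounts. Within 3 against 3 arrays, 2 of the 4 genes did not overlap in line 252 and 4 of 4 in line 082. Of all probe sets 23% lay higher and 34% lower with no overlap in line 252, and 26.6% and 34.1% in line 082.

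The heat changes were then compared between the lines in the same fit. For HSP26.7 the change in line 252 exceeded that in line 082 by 5.10 ± 0.59 on the log2 scale (adjusted p = 8.08e-05 in limma), and by 5.69 when the array at 193.1 was left out. For HSP24.1 the difference was 4.73 ± 0.68 (adjusted p = 0.000337), and 5.49 without replicate 1 of line 252 at optimal temperature. For HSP26.2 it was 1.99 ± 0.35 (adjusted p = 0.00139). For HSP23.2 it was 1.06 ± 0.59 with an adjusted p of 0.196 and a 95% interval of −0.21 to 2.34, and it passed with array weights (1.46) and without replicate 1 of line 252 at optimal temperature (1.51). Its size rested on the added constant, at 1.74 with 1 added and 0.40 with 64 (adjusted p = 0.502). So 3 of 4 genes had a higher heat change in line 252, against 11% of all probe sets, and 12.3% of probe sets had a lower one. For these 3 genes most of the difference lay in the gap between the lines at optimal temperature, given next. The part of the grain marker sums and actin 3′/5′ ratios of line 082 at optimal temperature in it cannot be told apart and was not tested.

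At optimal temperature all 4 genes were lower in line 252 than in line 082, against 12.1% of probe sets that were lower and 15.3% that were higher. HSP26.7 averaged 31.7 ± 5.34 in line 252 and 1421 ± 407 in line 082 (SD, n = 3 each), a log2 difference of −4.88 ± 0.42 (adjusted p = 2.56e-06 in limma). With line 252 under its array medians this size too rested on the constant, at −5.42 with 1 added and −3.92 with 64, as did the difference of the heat changes (5.73 and 4.01). The fall of HSP26.7 in line 082 was −4.23 with 1 added and −3.32 with 64. HSP24.1 averaged 632 ± 636 in line 252 and 8779 ± 1177 in line 082, a difference of −4.19 ± 0.48 (adjusted p = 2.37e-05), or −4.96 without replicate 1 of line 252. HSP23.2 differed by −1.77 ± 0.42 (adjusted p = 0.00415) and HSP26.2 by −1.63 ± 0.25 (adjusted p = 0.000221). HSP23.2 stood at −2.48 with 1 added in place of 16 and at −0.995 with 64, just under the minimum. These 4 differences came with the high grain marker sums and the low actin 3′/5′ ratios of line 082 at optimal temperature. Neither measure overlapped line 252 there, so its part cannot be told apart from that of the line and was not tested. In tissue as mixed as a panicle, fewer cells of a type and less RNA per cell cannot be told apart.

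At high temperature none of the 4 genes differed between the lines, where 0.621% of all probe sets were higher and 1.13% lower in line 252. Line 252 over line 082 was 1.16-fold for HSP26.7 (95% interval 0.623 to 2.17), 1.28-fold for HSP26.2 (0.880 to 1.87), 1.45-fold for HSP24.1 (0.705 to 2.97) and 0.615-fold for HSP23.2 (0.329 to 1.15). Their adjusted p ran from 0.561 to 0.912 in limma. The intervals do not show that the lines were alike: for HSP24.1 a difference of up to 2.97-fold was within the error. The order for HSP26.7 turned to −0.18 on the log2 scale without replicate 3 of line 082.

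**Figure D3:**
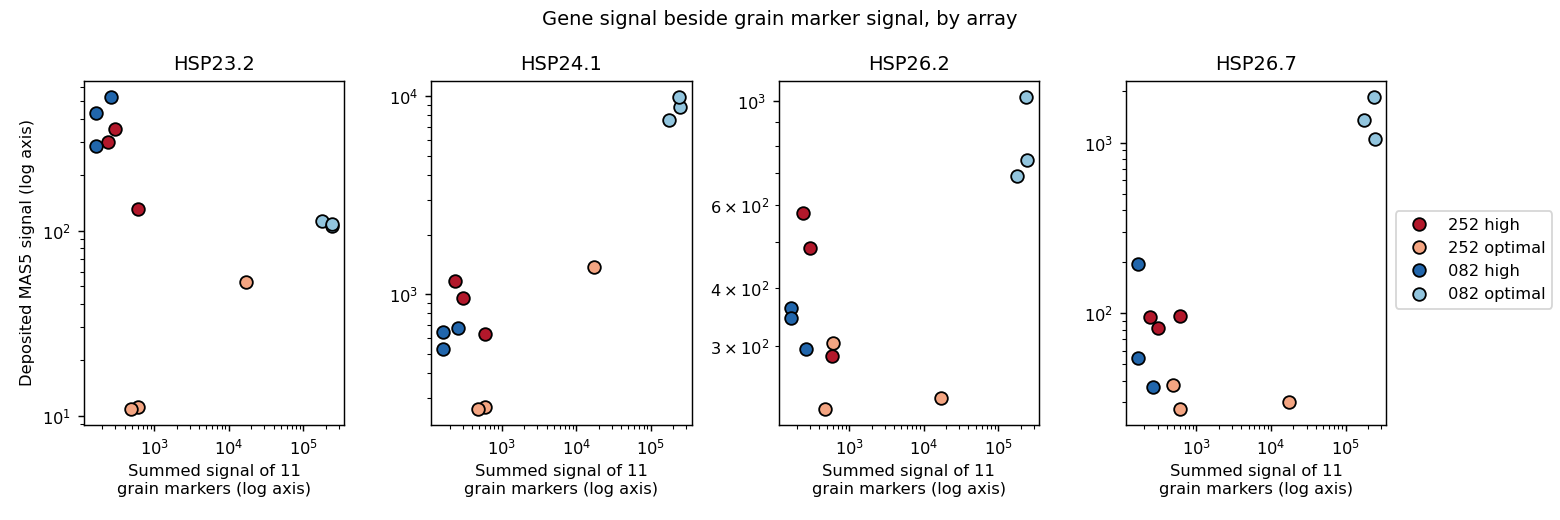
Deposited signal of each gene (vertical, log axis) beside the summed signal of 11 grain markers (horizontal, log axis) on each of the 12 arrays, coloured by group. The line 082 arrays at optimal temperature stand alone at sums of 178050 to 245731, and replicate 1 of line 252 at optimal temperature lies between them and the rest at 17253. Most of the 17253 came from GBSS-I and SSII-3.

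Replicate 1 of line 252 at optimal temperature stood out from its group in some of the 4 genes only. Its HSP24.1 signal of 1366 stood against 267.3 and 262.6, and its HSP23.2 signal of 52.5 against 11.1 and 10.9. Its HSP26.2 signal of 232.2 lay between those of the other arrays (304.6 and 220.5), and so did its HSP26.7 signal of 30.0 (27.4 and 37.6).

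Among the 4 genes, HSP24.1 and HSP26.7 had the most similar patterns. Likeness was measured as the root mean square difference of log2 values over the 12 arrays after each gene was centred on its own mean. It was 0.79 for HSP24.1 and HSP26.7, which made HSP24.1 the fifth nearest to HSP26.7, and HSP26.7 the tenth nearest to HSP24.1, among 2339 named genes. Between the mitochondrial genes HSP24.1 and HSP26.2 it was 1.24, and between HSP26.2 and HSP26.7 it was 1.37. HSP23.2 stood further away, at 2.12 from HSP24.1, 2.30 from HSP26.7 and 1.40 from HSP26.2. By distance from HSP26.2, HSP24.1, HSP26.7 and HSP23.2 ranked 1742, 1898 and 1927 of the 2339 named genes. Seen from the other side, HSP26.2 ranked 101 from HSP24.1, 84 from HSP26.7 and 828 from HSP23.2. The measure was not scaled for the size of change. HSP26.2 had smaller heat changes than HSP24.1 and HSP26.7 in both lines (0.75 in line 252 and −1.24 in line 082), in the same directions.

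**Figure D4:**
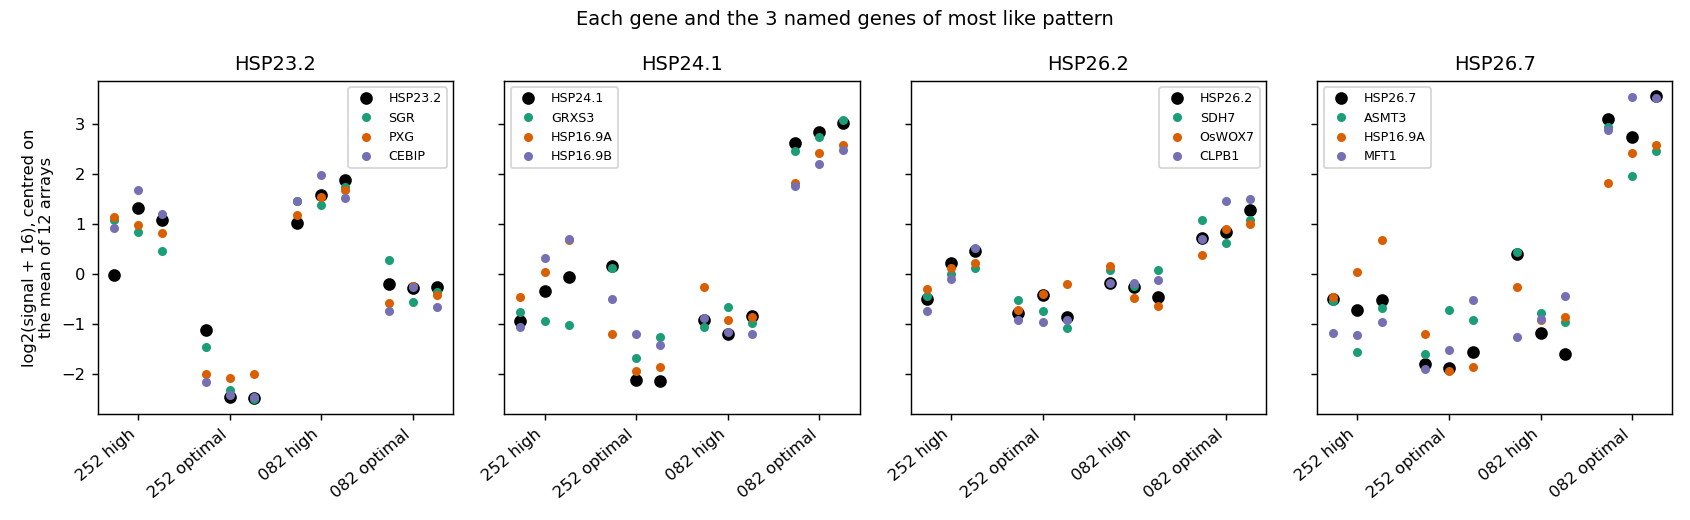
log2(signal + 16) of each gene (black) and of the 3 named genes nearest to it, centred on each gene's mean over 12 arrays, with 1 point per array. HSP16.9A appears beside both HSP24.1 and HSP26.7, with a rise at high temperature in line 252 and a fall in line 082.

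The 3 named genes nearest to each of the 4 genes were picked on the same 12 arrays. Likeness of their heat changes follows from that choice and is no separate result. The named genes nearest to HSP23.2 were SGR, the stay-green gene of chlorophyll breakdown (0.46), PXG, a peroxygenase gene (0.49), and CEBIP, which encodes a chitin receptor at the cell surface (0.51). SGR rose by 2.89 ± 0.28 in line 252 and 1.74 ± 0.28 in line 082, and PXG by 3.01 ± 0.15 and 1.88 ± 0.15. Nearest to HSP24.1 were the glutaredoxin gene GRXS3 (0.47) and the cytosolic small heat shock genes HSP16.9A (0.61) and HSP16.9B (0.61). GRXS3 fell by 3.65 ± 0.37 in line 082 and had a log2 change of 0.04 ± 0.37 in line 252.

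Nearest to HSP26.2 were SDH7, named for a subunit of the mitochondrial enzyme succinate dehydrogenase (0.28), OsWOX7, a WUSCHEL-related homeobox gene (0.28), and CLPB1 (0.29), the cytosolic HSP101 disaggregase that hands aggregated proteins on for refolding. CLPB1 fell by 1.39 ± 0.28 in line 082 (adjusted p = 0.00106 in limma), and its log2 change of 0.83 ± 0.28 in line 252 stayed under the minimum. The signals of OsWOX7 averaged 22.7 to 73.9 over the groups, near or under the array medians. Nearest to HSP26.7 were ASMT3, of the melatonin synthesis genes (0.64), HSP16.9A (0.72) and MFT1 (0.76). MFT1, of the family of the flowering signal FT, fell by 4.18 ± 0.32 in line 082 and had a log2 change of 0.20 ± 0.32 in line 252.

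**Figure D5:**
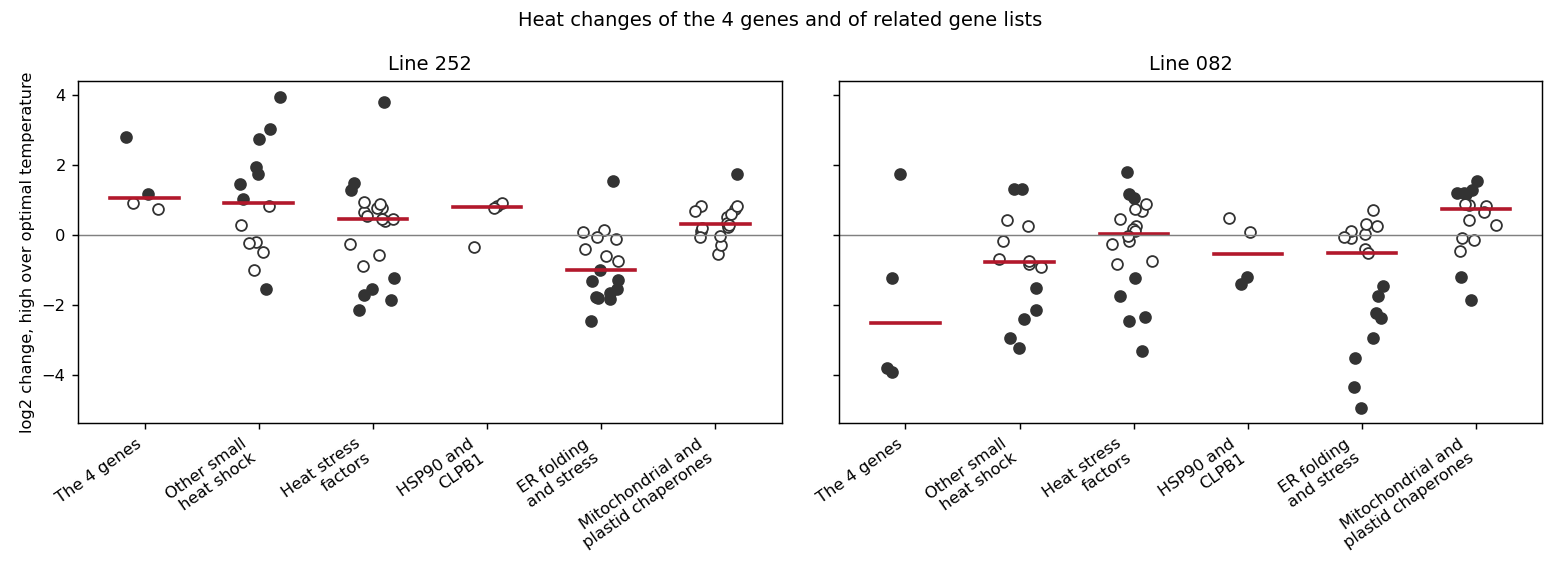
log2 heat change of the 4 genes and of 5 related lists in line 252 (left) and line 082 (right); points are genes, filled where the test passed, and red bars are medians. The ER folding and stress genes lay mostly below 0 in both lines, while the ER member HSP23.2 was the highest of the 4 genes in both.

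The other small heat shock genes held 15 members, of which 14 were bright enough to test. In line 252, 7 rose and 1 fell, with a median log2 change of 0.93 (above 0 under every scaling run) against −0.15 for all genes, where 11.3% of genes rose and 22% fell. HSP18.6 (3.95 ± 0.30) and HSP18.1 (3.02 ± 0.30) rose furthest, and HSP22.3 fell (−1.55 ± 0.28). In line 082, 2 rose and 5 fell, with a median of −0.79 (below 0 under every scaling run) against 0.02 for all genes, where 18.1% of genes rose and 20.3% fell. HSP17.9B (1.32 ± 0.33) and HSP18.8 (1.30 ± 0.28) rose, and HSP16.9B (−3.22 ± 0.39) and HSP16.9A (−2.95 ± 0.30) fell furthest. The heat change was higher in line 252 for 8 of the 14 and lower for 1, where 9.75% and 15.6% of all genes were. Close copies within this family may share probe sets.

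Of 20 heat stress factors, which switch on heat shock genes or in class B often repress them, 3 rose and 5 fell in each line, shares near those of all genes (11.3% and 22% in line 252, 18.1% and 20.3% in line 082), and with 75th percentile centring 6 rose and 4 fell in line 252. HSFC2A rose in line 252 (3.80 ± 0.29) and in line 082 (1.80 ± 0.29). HSFB2A rose in line 252 (1.48 ± 0.19) and fell in line 082 (−1.75 ± 0.19), and the difference of 3.22 ± 0.27 passed (adjusted p = 7.24e-06 in limma). HSFB4B (−2.16 ± 0.68) and HSFA3 (−1.85 ± 0.24) fell in line 252. In line 082 HSFC1B rose (1.17 ± 0.35), and HSFA2A (−3.30 ± 0.45), whose class sustains the heat response in Arabidopsis, and HSFB2C (−2.47 ± 0.32) fell furthest. The median log2 change of the factors was 0.47 in line 252 and 0.04 in line 082, and with spike scaling it was 0.04 in line 252 and −0.07 in line 082.

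HSP23.2 rose in both lines, while in a list of ER folding and stress genes more fell than rose. The list held chaperones and protein disulfide isomerases and also IRE1, the sensor of unfolded protein in the ER, and the transcription factors BZIP39, BZIP50 and BZIP60 of the ER stress response. Of its 18 genes 17 were bright enough to test, and 9 fell and 1 rose in line 252, against 22% of all genes that fell and 11.3% that rose. In line 082, 8 fell and 0 rose, against 20.3% and 18.1% of all genes. The protein disulfide isomerase genes PDIL2-3 (−2.45 ± 0.27) and PDIL1-5 (−1.83 ± 0.55, not passing with quantile normalization) fell furthest in line 252, and PDIL1-4 (−4.94 ± 0.27) and PDIL2-3 (−4.34 ± 0.27) in line 082. The gene that rose in line 252 was one of the transcription factors, BZIP60 (1.54 ± 0.18). BIP1, the main HSP70 of the ER, named after its values were seen, fell in both lines. It averaged 3736 at high and 11315 at optimal temperature in line 252, and 3961 at high and 20674 at optimal temperature in line 082. The median of the list was −1.001 in line 252 and −0.51 in line 082, below 0 under every scaling run.

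Of 16 mitochondrial and plastid chaperones and proteases, 1 rose and 0 fell in line 252 (11.3% and 22% of all genes did), and 5 rose and 2 fell in line 082 (18.1% and 20.3% of all genes). With 75th percentile centring 4 rose in line 252 and 8 in line 082. Their median log2 change was 0.30 in line 252, or −0.14 with spike scaling, and 0.74 in line 082. CLPB-M, the disaggregase of mitochondria, fell by 1.87 ± 0.21 in line 082 and had a log2 change of 0.11 ± 0.21 in line 252, a difference of 1.98 ± 0.30 (adjusted p = 0.000467 in limma) beside 1.99 for HSP26.2 and 4.73 for HSP24.1. CLPB-C, its plastid counterpart, named after its values were seen, did not pass in either line (0.82 ± 0.18 in line 252 and −0.15 ± 0.18 in line 082). The gene that rose in line 252 was FTSH6 (1.73 ± 0.35), whose Arabidopsis counterpart encodes a plastid protease that lowers the level of plastid small heat shock protein. It had a log2 change of −0.45 ± 0.35 in line 082, and the difference of 2.19 ± 0.50 passed (adjusted p = 0.00590). In line 082 the Clp ATPase genes CLPD1 (1.54 ± 0.24) and CLPD2 (1.28 ± 0.30) rose and CLPC3 fell by 1.20 ± 0.24, which did not pass with quantile normalization (−0.80).

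None of the 4 HSP90 and CLPB1 genes passed in line 252, though 3 did with 75th percentile centring. In line 082, CLPB1 and the HSP90 gene HSP81-1 (−1.20 ± 0.11) fell and 0 rose, where 20.3% of all genes fell and 18.1% rose. The difference of the heat changes passed for CLPB1 (2.22 ± 0.39, adjusted p = 0.00136 in limma) and for no other gene of the list.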

How the data were processed

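The values were deposited as a table of intensity signals on a linear scale, 1 per probe set and array, and the submitters' processing notes name MAS5, with no version or further step. A 2% trimmed mean lay between 499.9 and 500.0 on every array, so the arrays were taken as scaled to it. Genes were assigned from the platform annotation, with names from a RefSeq gene table of assembly ASM3414082v1 (22436 probe sets with 1 gene, 95 with several and left out, and the rest of the 57381 unnamed here). No sequences or coordinates were used. Leaving out 123 controls, a probe set was kept if it exceeded the array's median signal on 3 or more of the 12 arrays (33658 kept). All 4 members passed; HSP23.2 and HSP26.7 were above the median on 9 arrays, the other 2 genes on 12. Models with 4 group means were fitted to log2(signal + 16) in limma (version 3.58.1, R 4.3.3), with an intensity trend, 8 residual degrees of freedom and Benjamini-Hochberg adjustment over the kept probe sets. Errors of log2 changes are standard errors. The number of arrays limits the precision. Nothing in the labels beyond the word biological says how replicates were obtained, so p-values measure the spread between these arrays.

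Lists used 1 probe set a gene, the one with the highest mean. Named genes were the members, the 3 nearest named genes of each, and up to 2 called genes per direction, list and line with the largest heat change. Genes called bip followed by 3 digits, which carry other gene names, were left out of the ER list. Members and lists were chosen with earlier results of these data known. The fit was tested on simulated data. Alternatives were other scalings, pseudocounts, filters, variance models, array weights, a replicate block, the compared groups alone, no fold minimum, averaging the probe sets of each gene and dropping each array in turn; setting aside the reporter controls was added after seeing the data.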

Additional observations from a re-analysis of the deposited data

Results flagged for a closer look

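The heat change differed between the lines, by the test of the difference itself, for 3 of the 4 genes. The change in line 252 minus that in line 082 was 5.10 on the log2 scale for HSP26.7, 4.73 for HSP24.1 and 1.99 for HSP26.2. In line 252 these genes changed by 1.17, 0.92 and 0.75, and in line 082 by −3.93, −3.81 and −1.24. For HSP26.2 quantile normalization gave 1.16 in line 252 and −1.09 in line 082.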

How the results depend on the processing

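Of 20 results for single genes, 14 kept their direction and their side of the threshold under every alternative run, and 491 of 511 values did. HSP23.2 was too dim for the filter at the 75th percentile and has no value there, and the difference of heat changes has none with the compared groups alone. In line 252, HSP24.1 passed with centring on the 75th percentile (1.22), with array weights (1.34) and without replicate 1 at optimal temperature, and leaving out arrays moved it from 0.53 to 1.68. HSP26.2 passed there with quantile normalization (1.16), with centring (1.04), with no fold minimum (0.75) and without replicate 1 at high temperature (0.55 to 1.03 over the arrays left out). Spike scaling lowered HSP24.1 to 0.48 and HSP26.2 to 0.32 in line 252, and neither passed. HSP26.7 no longer passed there with spike scaling (0.83), with 64 added (0.70), with no filter (1.17) or without any of the 6 arrays of the line (1.10 to 1.26). The difference of heat changes of HSP23.2 passed with array weights (1.46) and without replicate 1 of line 252 at optimal temperature (0.80 to 1.51). For line 252 against line 082, HSP23.2 at optimal temperature missed the minimum with 64 added (−0.995), and HSP26.7 at high temperature, which did not pass, reversed without replicate 3 of line 082 (−0.18 to 0.81). The causes were not tested.

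Counts of probe sets called moved by over 1.5 times mostly where fewer features or a looser rule were used. The main counts were 9694 and 12147 for heat in lines 252 and 082, 7829 for their difference, and 591 and 9210 for the lines at high and optimal temperature. The filter at the 75th percentile gave 5534, 7216, 5071, 335 and 5275, and averaging the probe sets of each gene 5293, 6061, 4046, 218 and 4630. No fold minimum gave 15521, 18435 and 15033 for heat in the 2 lines and the lines at optimal temperature, and array weights gave 924 for the lines at high temperature.

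Scaling moved the split of calls. In line 252, 3167 rose and 6527 fell, against 4394 and 4584 after quantile normalization, 4962 and 4725 after centring, and 1669 and 10337 with spike scaling. In line 082, 4788 rose and 7359 fell, against 6228 and 5436, and 6174 and 6221. For the difference, 3701 were higher and 4128 lower, against 2483 and 6143 with spikes, and for the lines at optimal temperature 5142 and 4068, against 4057 and 4903 after centring and 7250 and 3165 with spikes. The median log2 change of all probe sets shifted by 0.27 in both lines after quantile normalization, by 0.27 and 0.17 after centring, and by −0.39 and −0.10 with spikes. No called gene of the related lists changed sign under these scalings.

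Replicate numbers did not pair the arrays: deviations of same-numbered arrays correlated at −0.20 to 0.13, with 2 of 18 above 0.1. With the replicate number as a block the counts were 9634, 12117, 7682, 539 and 9151, and no call of the 4 genes changed (HSP26.7 in line 252 had an adjusted p of 0.0371 in limma).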
